A study of Mus musculus with 7 samples.

Results

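The loci described here are the Tbx5-dependent noncoding RNAs (ncRNAs) that carry the name of an annotated gene. They were the rows of a deposited list of distal ncRNA loci whose overlap column named a gene, and they numbered 202 of the 1489 loci in the list. The other 1287 loci had no overlapping annotation and served as the comparison. TBX5 is a T-box transcription factor of cardiac rhythm genes. Left atrial RNA came from adult male mice of mixed strain, aged 6 to 8 weeks. The control mice (R26CreERt2, 3 libraries) and the knockout mice (Tbx5fl/fl;R26CreERt2, 4 libraries) both carried a tamoxifen-inducible Cre driven by the ubiquitous R26 promoter. Tamoxifen was given for 3 days and tissue was taken 1 week later, so the loss of exon 3 of Tbx5 was not limited to cardiomyocytes. RNA was depleted of ribosomal and polyadenylated RNA before sequencing. A locus is an interval assembled from these reads and called different between knockout and control. The paper then narrowed its ncRNAs to those near a coding gene that changed in the same direction. The list may already hold that choice, which would bear on linked genes and start site distances of annotated and unannotated loci alike. The study set these intervals apart as distal from coding start sites, yet in the GENCODE M21 annotation XLOC_007688 overlapped a start of Rnf227, XLOC_055112 a start of Psd3, and XLOC_049570 and XLOC_049573 a start of Fam181b. The list gives no level, fold change or p-value for a library, so neither the reads behind a locus nor variation from mouse to mouse is known. The study sorted its ncRNAs by direction, and the deposited names for this list disagree on which direction it holds. No direction of change was therefore assigned, and the tissue could not be checked against its marker genes. All comparisons below are between loci of the list.

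Annotated noncoding genes are of several kinds. Long noncoding RNA genes give transcripts without a long open reading frame, and some of those transcripts are hosts from which microRNAs are cut. A microRNA finds its target messages mainly through its seed, bases 2 to 8 of the mature strand. Small nucleolar RNAs guide chemical modification of other RNAs, and small nuclear RNAs are parts of the spliceosome. Processed pseudogenes are copies of spliced messages that were reverse transcribed and inserted elsewhere in the genome, and their sequence can remain close to that of the parent message. By deposited type, 103 of the 202 loci overlapped long noncoding genes only, 67 named a pseudogene type, 18 named a small RNA and 14 had a name but no type. Of 252 name entries, 197 were different genes, of which 176 were named by 1 locus. A pair of loci each over Gm26862 and over 2310014F06Rik repeated the same interval, which left 200 different intervals.

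Loci over microRNA genes. A whole small RNA gene lay inside 15 of the 202 loci, on the strand of the locus. Over the 14 different intervals these were 26 microRNA genes in 10 loci and 5 snoRNA or snRNA genes. RefSeq (GRCm38.p6) gave mature sequences for 23 of these microRNA genes in 8 loci, with 42 different mature microRNAs and 38 different seeds. A mature strand is given for some of them, with the seed in capitals, because 5 seeds came from a pair of genes each. In 4 of these pairs both genes lay within the same locus, and in 1 pair, that of miR-125b-5p, they lay on different chromosomes.
mmu-let-7b-5p: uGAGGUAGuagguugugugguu
mmu-let-7c-5p: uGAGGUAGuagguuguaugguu
mmu-miR-30a-5p: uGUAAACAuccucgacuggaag
mmu-miR-30c-5p: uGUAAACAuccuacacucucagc
mmu-miR-125b-5p: uCCCUGAGacccuaacuuguga
mmu-miR-221-3p: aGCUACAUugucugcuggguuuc
mmu-miR-223-3p: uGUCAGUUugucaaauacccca
mmu-miR-134-5p: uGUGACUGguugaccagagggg
mmu-miR-410-3p: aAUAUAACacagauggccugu

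The let-7 pair came from XLOC_018940 (chr15:85671189-85708988, plus strand), a locus of 37800 bp. Mirlet7c-2 and Mirlet7b lay 35.4 kb and 36.1 kb from its 5′ end, close to its far end. Its linked coding genes in the list were Ppara, a nuclear receptor for fatty acid oxidation 26 kb away, and Pkdrej. The miR-30 pair came from XLOC_000121 (chr1:23257004-23295826, plus strand), a locus of 38823 bp with Mir30a at 15.3 kb and Mir30c-2 at 34.7 kb. Both pairs share a seed within the pair, GAGGUAG for let-7 and GUAAACA for miR-30, and differ in the bases after it.

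The mature miR-125b-5p is encoded by a gene inside each of 2 members on different chromosomes. XLOC_021279 (chr16:77631864-77681530, plus strand) spans 49667 bp of Mir99ahg, a long noncoding host, and holds Mir125b-2 at 14.4 kb. XLOC_056486 (chr9:41581307-41596637, plus strand) spans 15331 bp and holds Mir125b-1 at 0.619 kb from its 5′ end. The conservation scores of these hosts, on the phastCons scale from 0 to 1, were 0.176 and 0.265. The locus with the most microRNA genes was XLOC_012053 (chr12:109729605-109749457, plus strand), over Mirg, the microRNA-bearing gene of the imprinted Dlk1-Dio3 region. It held 14 microRNA genes in 19853 bp, from Mir382 at 4.17 kb to Mir3072 at 18.3 kb. Neither Meg3 nor Rian, long noncoding genes of the same region, was named by any of the 202 loci.

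Both X-linked hosts were short. XLOC_059943 (chrX:96239925-96245265, plus strand) held Mir223, a microRNA of myeloid cells, in 5341 bp, of which 61.7% were exon bases of F630028O10Rik and Mir223. XLOC_060722 (chrX:19145405-19146821, minus strand) held Mir221 in 1417 bp, at 0.433 kb from its 5′ end. The next locus on that strand, XLOC_060724, began upstream of it and spanned 20890 bp over Gm14636. These 2 loci had the same linked gene, 4930578C19Rik, at 684 kb and 686 kb. XLOC_002143 on chromosome 1 began 0.016 kb before Mir5103. The measured quantity is a locus made of longer RNA, and levels of mature microRNAs were not analysed here.

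**Figure D1:**
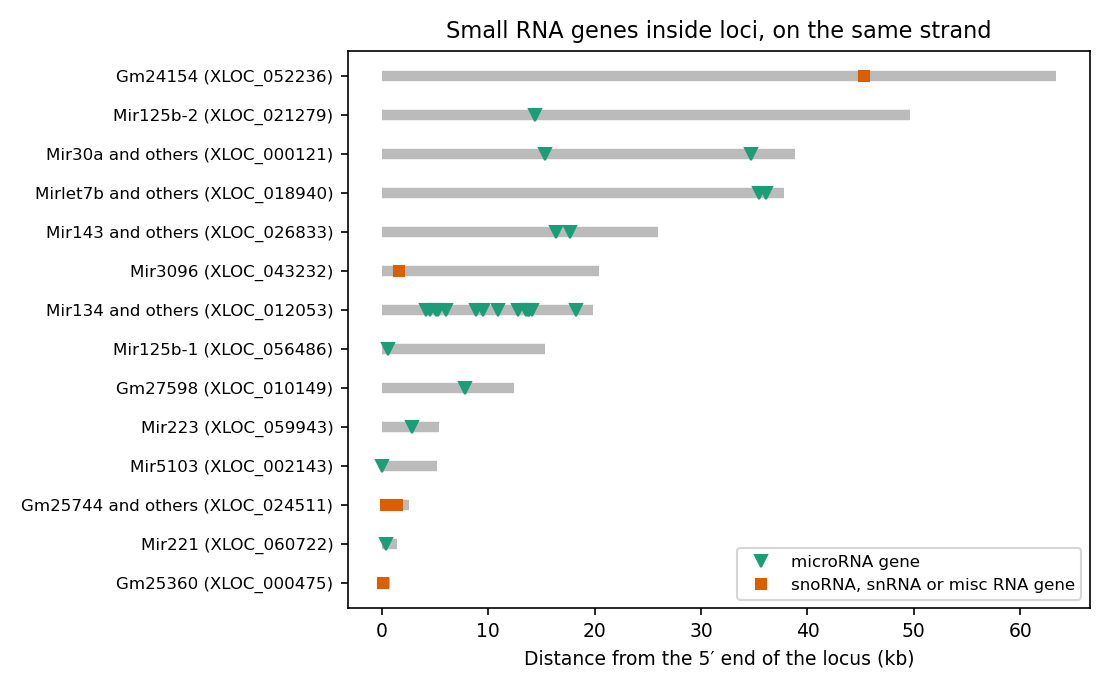
Small RNA genes inside 14 loci. Each grey bar is a locus drawn from its 5′ end to its 3′ end in kb, triangles are microRNA genes and squares are snoRNA or snRNA genes on the same strand. XLOC_012053 holds 14 microRNA genes, while Mirlet7c-2 and Mirlet7b sit near the 3′ end of XLOC_018940 and Mir125b-1 near the 5′ end of XLOC_056486.

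Among other small RNA members, XLOC_026833 spanned 25978 bp over Carmn, the host of Mir143 and Mir145a in smooth muscle, and over Bvht, a long noncoding gene of cardiac commitment in mouse. Mir143 lay at 16.4 kb and Mir145a at 17.7 kb. Over Mir17hg, the host of the miR-17 to miR-92 cluster, XLOC_017160 covered 1074 bp and held none of its microRNA genes. XLOC_024511, of 2593 bp, held the snoRNA gene Snord52 and the predicted snoRNA gene Gm25744 within 1110038B12Rik. The spliceosomal snRNA genes Rnu5g and Gm25313 were overlapped by neighbouring loci of 517 bp and 555 bp inside Parp16, on the strand opposite to that coding gene, and both had Kbtbd13 as linked gene. Gm25360, an snRNA gene, lay within XLOC_000475, and Gm24154, a snoRNA gene, within the repeated interval of 63349 bp over 2310014F06Rik. Rprl3, a ribonuclease P RNA-like gene, was overlapped along 98.7% of a locus of 238 bp that scored 0.804, the highest score in this class. Gm24598, a predicted snoRNA gene on the X chromosome, was overlapped by XLOC_059730 over 3.64% of the locus. Gm27598, Gm22372 and Gm24938 were named together with a pseudogene and are counted in that class, and XLOC_043232 held Mir3096 in 20408 bp.

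Strand. The strand of a locus was compared with the strand of the gene it named, in GENCODE release M21 (mm10). A named gene was found on the chromosome for 181 loci, and 159 of these (87.8%, 95% Wilson interval 82.3 to 91.8) were on its strand. All 18 small RNA loci and 63 of 66 pseudogene loci that overlapped a gene they named lay on its strand, against 77 of 96 long noncoding loci. The 22 loci on the opposite strand had lengths from 70 to 98209 bp with a median of 180 bp, and 5 of them were marked bidirectional in the list. At XLOC_030742 and XLOC_023638 the list gave a further name, so these loci are antisense to one named gene only. XLOC_030742 lay on the strand of BC039771 in RefSeq, and XLOC_023638 held exon bases of the pseudogene Gm9320 on its own strand. Further examples of the 22 were XLOC_000367 over Gm26813, 2912 bp downstream of the Wnt receptor gene Fzd7, XLOC_040561 and XLOC_040564 over Gm12811, and XLOC_008520 over Gm11674, whose linked gene was Kcnj2, the potassium channel Kir2.1. The labels name the TruSeq RNA kit v2 while the methods call the reads stranded, and the part of library strandedness in these counts was not tested. The methods also list the Cufflinks option -g, by which an annotation can guide the assembly. The strand of a locus may therefore not be independent of the annotation, which was not tested either.

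Exons. Among loci on the strand of a gene they named, 57 of 77 long noncoding loci held no exon base of that gene, as did 3 of 63 pseudogene loci. Processed pseudogenes have no introns, so this contrast is largely set by the class and was not tested. Without the loci over Gm14005 and its neighbour Gm14009 the first count was 35 of 53. Intronic examples were XLOC_018661, 274 bp within Pvt1, a long noncoding gene downstream of Myc, and XLOC_008851, 155 bp within 8430419K02Rik near Meis1, a homeobox gene. At the other end, XLOC_007977, of 3010 bp, lay in exons of AI662270 along nearly its whole length, and XLOC_009974 and XLOC_017632 lay wholly in exons of 4732414G09Rik and Gm10101.

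Pseudogene loci and coding messages. Sequence inside exons on the strand of the locus was available for 62 of the 67 pseudogene loci, and 58 of them matched the message of a coding gene. Each match was in the sense direction. The sequence was read along the annotated transcript, so this is no evidence on the direction of transcription. Median identity was 97.2% (95% interval 96.0 to 97.7), from 68.5% to 99.8%, and 49 loci matched at 90% identity or more over 90% or more of their exon bases. The 58 loci matched 50 different coding genes. The stretches below show the pseudogene with the highest conservation score, Gm7308 in XLOC_047935 (chr6:127281541-127282526, minus strand), with the first 90 coding bases of calmodulin gene Calm2, and Gm12387 in XLOC_039831 (chr4:39895301-39895437, minus strand) with 90 coding bases of the mitotic kinase gene Pbk. Capitals mark bases that differ within a pair, 3 in the first pair and 1 in the second.
Gm7308: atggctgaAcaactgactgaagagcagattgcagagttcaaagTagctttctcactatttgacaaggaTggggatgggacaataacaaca
Calm2: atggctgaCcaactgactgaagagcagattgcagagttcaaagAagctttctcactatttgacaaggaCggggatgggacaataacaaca
Gm12387: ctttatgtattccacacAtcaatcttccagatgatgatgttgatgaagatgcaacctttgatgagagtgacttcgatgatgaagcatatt
Pbk: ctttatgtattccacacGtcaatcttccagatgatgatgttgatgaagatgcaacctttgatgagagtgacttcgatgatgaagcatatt

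Reads were 50 bases long and 3 were trimmed, so a window of 47 bases stands for a read. A read from an unchanged window fits both the pseudogene and the coding message. Unchanged windows made up a median of 24.9% (16.5 to 41.4) of all windows in the 59 pseudogene loci with at least 47 exon bases. At least 10% of windows were unchanged in 42 of those 59 loci (71.2%, 58.6 to 81.2) and in 0 of 37 long noncoding and small RNA loci (upper limit 9.41%). The difference was 71.2 percentage points (two-sided Fisher's exact test, Benjamini-Hochberg adjusted exact p = 6.75e-13 over 7 tests). Loci without a type were left out here, although the conservation comparison below counts them among the other annotated loci. Of the 8 with exon sequence, 4 had at least 10% of windows unchanged. Exon sequence was available for only 19 of the 103 long noncoding loci, and for all 18 small RNA loci. It could be a small part of the span, as for XLOC_018940 with 95 exon bases in 37800 bp. The remaining sequence of these loci was not compared. When 50% of windows was required, the difference was 27.1 points (adjusted exact p = 0.000425). The comparison was added after the files had been seen. Pseudogenes are by definition copies of other genes, so such a difference in sequence is partly built into the class.

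The share of unchanged windows varied widely among pseudogene loci. It was 91.9% for Gm6863 and Naca, a chaperone of new polypeptides at the ribosome, 91.7% for Gm4204 and Nap1l1, a histone chaperone, 87.3% for Gm5763 and Rgs3, a regulator of G protein signalling, and 86.7% for Gm7332 and Ppp1r14b, an inhibitor of protein phosphatase 1. It was 21.4% for Gm7308 and Calm2 and 3.45% for Gm14016 and the translation factor gene Eif5a, although these loci were also among the most conserved. Trp53-ps matched Trp53 at 96.5% identity with 5.58% of windows unchanged. The 3 loci over Gm7823 on the X chromosome matched Lcp1, an actin-bundling protein of blood cells, at 94.7% to 98.7% identity. Mx2, listed as a polymorphic pseudogene, matched Mx1, its interferon-induced paralogue, in a best aligned stretch of 38.0% of its exon bases. Any further stretches were not counted. Reads that fit several places were weighted during transcript assembly, while their treatment in the later counting is not given in the sources used here, so the part of messages from coding genes in these loci was not tested.

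**Figure D2:**
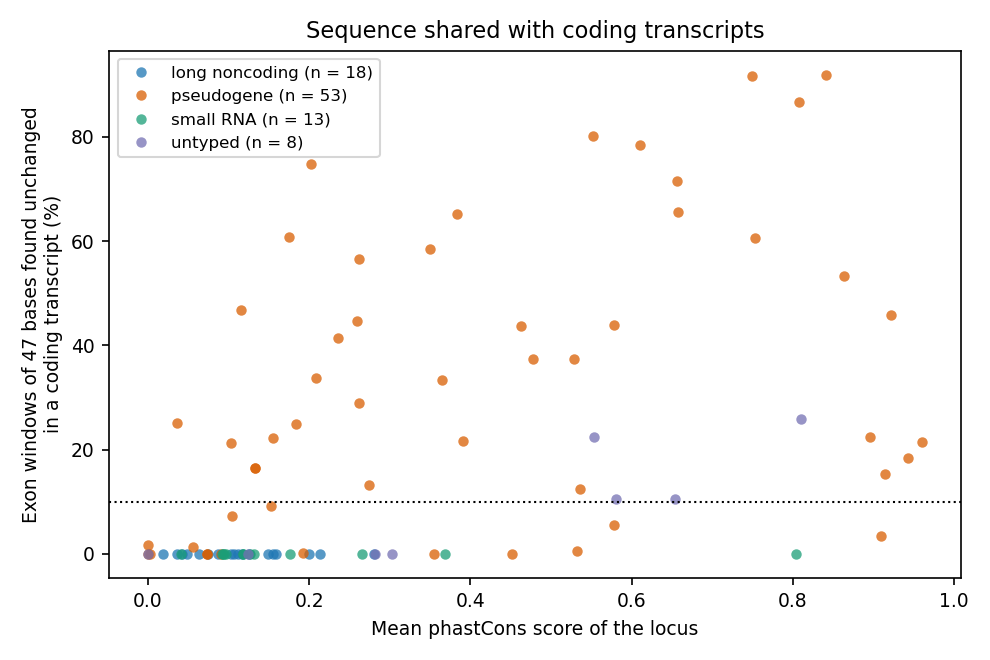
Share of 47-base exon windows found unchanged in a coding message (percent, vertical axis) against the mean phastCons score of the locus (horizontal axis), for loci with both values, coloured by class. The dotted line is at 10%, above which no long noncoding or small RNA locus lies, while pseudogene loci reach 91.9%, at a score of 0.841.

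Conservation. The deposited score is the mean phastCons value of a locus over 30 vertebrate genomes, and it was given for 180 of the 202 loci. No locus on the X chromosome had a score, which removed 12 of the 202. The median was 0.274 (0.184 to 0.478) for pseudogene loci, 0.118 (0.0929 to 0.265) for small RNA loci, 0.0611 (0.0420 to 0.104) for long noncoding loci and 0.303 (0.0227 to 0.654) for the 11 scored loci without a type. It was 0.0699 (0.0622 to 0.0779) for unannotated loci. A score above 0.5 was reached by 20 of 57 pseudogene loci (35.1%, 24.0 to 48.1) and by 7 of 123 other annotated loci (5.69%, 2.78 to 11.3), a difference of 29.4 percentage points (Fisher's exact test, adjusted exact p = 3.65e-06). Above a score of 0.7 the difference was 17.7 points, 19.3% against 1.63% (adjusted exact p = 0.00016). The annotated loci without pseudogenes and the 1084 scored unannotated loci, of which 4.70% passed 0.5, differed by 0.986 points (adjusted exact p = 0.654).

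The 10 highest scores among pseudogene loci are given with the coding gene whose message each matched. In falling order these were Gm7308 (0.960, Calm2), Gm15697 (0.943, the spindle kinesin gene Kif11), Gm5560 (0.921, the mitochondrial ADP/ATP carrier gene Slc25a5), Rps15a-ps8 (0.914, a ribosomal protein gene) and Gm14016 (0.910, Eif5a). They were followed by Gm5867 (0.896, the nucleotide kinase gene Cmpk1), Gm7856 (0.863, the mitotic regulator gene Cdc20), Gm6863 (0.841, Naca), Gm7332 (0.808, Ppp1r14b) and Gm6091 (0.753, the thymidine kinase gene Tk1). Gm15697 is typed as an unprocessed pseudogene and the others as processed pseudogenes. The score is read from an alignment between species, and the part of the coding parents in it was not tested.

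Of the 7 other annotated loci above 0.5, 4 had no type in the list. RP23-215C21.2 (0.810), XLOC_002257 (0.654), RP24-423I20.2 (0.581) and RP24-119I6.5 (0.553) lie on chromosome 1 and are listed under clone names. In GENCODE M21 their exons belong to Rbm6-ps1, Txn-ps1, Gm18699 and Gm4849, and they matched Rbm6, Txn1, Ctps and Iars at 95.8% to 97.8% identity. The remaining 3 were Rprl3 (0.804), 8430419K02Rik (0.686) and XLOC_032967 at Gm14009 (0.502). Next below the threshold came 1700093J21Rik (0.477), Gm25360 (0.368) and Chrna1os (0.325), a transcript antisense to a nicotinic receptor gene. Only 2 of 99 scored long noncoding loci therefore passed 0.5.

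**Figure D3:**
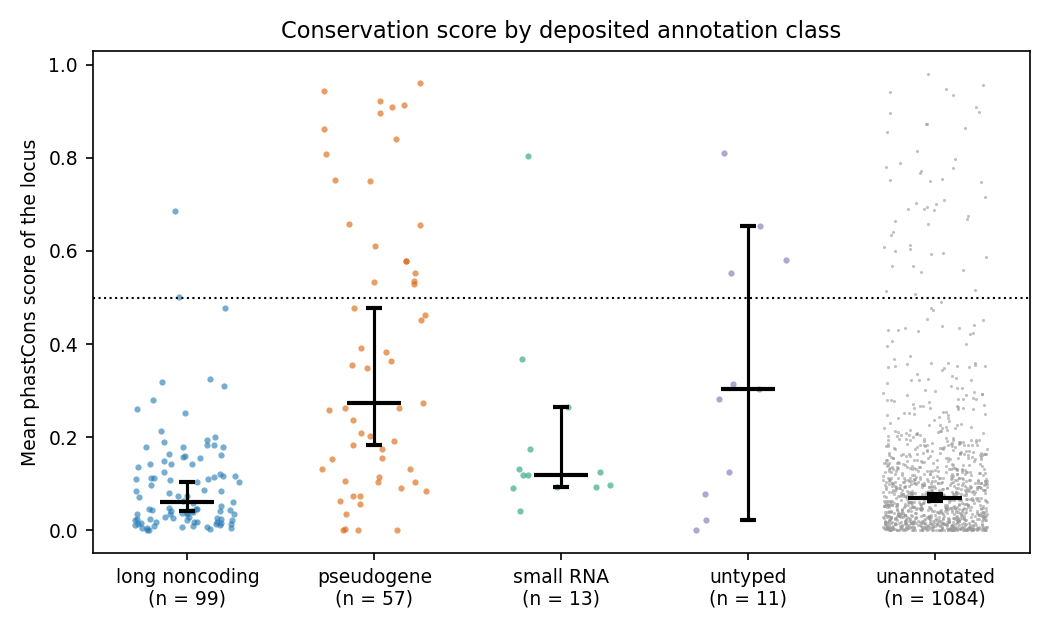
Mean phastCons score of each locus by annotation class, with the median and its 95% order-statistic interval in black and the threshold of 0.5 as a dotted line. Of 57 scored pseudogene loci, 20 lie above the line, against 2 of 99 long noncoding loci, whose median of 0.0611 is near that of unannotated loci (0.0699).

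Length. Small RNA loci had a median span of 10336 bp (1402 to 37800), pseudogene loci 536 bp (341 to 764), long noncoding loci 190 bp (165 to 245) and loci without a type 120 bp (67 to 1333). The unannotated loci had a median of 188 bp (173 to 201). Apart from pseudogenes, 51.9% of 135 annotated loci and 47.8% of 1287 unannotated loci were 200 bp or longer, a difference of 4.07 points (adjusted exact p = 0.620). A longer interval overlaps an annotated gene, or a small RNA gene, more readily. Length is therefore tied to how the groups and classes were made, and these comparisons cannot separate it from that. The result depended on the threshold, since 40% against 28% reached 500 bp (adjusted exact p = 0.00892) and the difference also passed at 100 bp and at 1000 bp. With only the longest locus of each 10-kb cluster, 56.4% against 38.3% reached 200 bp (adjusted exact p = 0.00097), but that choice uses length itself and is no separate check.

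The longest locus was XLOC_033072 (chr2:128298662-128429512, minus strand), 130851 bp over Gm14005. It was followed by the repeated interval of 111231 bp over Gm26862, Gm9934 and the coding gene Fam181b, and by XLOC_030742, which spanned 98209 bp over BC039771 and Gm11763 inside Rin2. The repeated interval of 63349 bp over 2310014F06Rik came next. XLOC_055112 spanned 51142 bp inside Psd3 over Gm21807, and Mir99ahg (49667 bp), Nlrp1c-ps (42804 bp) and the miR-30 host (38823 bp) completed the 10 longest. In several of these a small part was exonic, 1.63% for XLOC_033072, 1.14% for Mir99ahg and 8.08% for Nlrp1c-ps, a pseudogene of an inflammasome sensor.

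**Figure D4:**
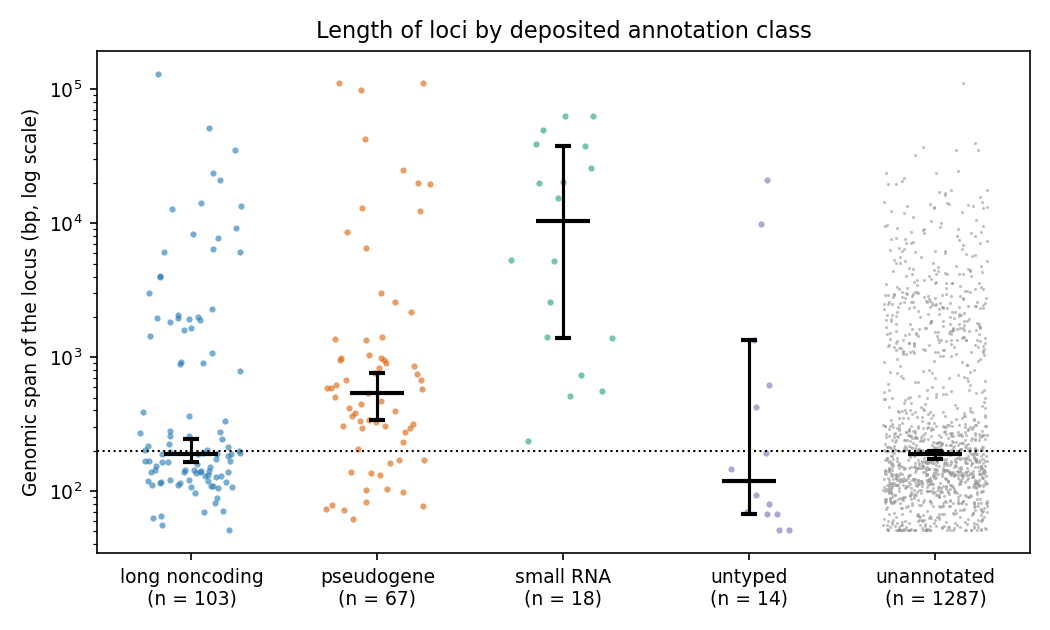
Genomic span of each locus in bp on a log scale, by annotation class, with the median and its 95% order-statistic interval in black and 200 bp as a dotted line. Small RNA loci have a median of 10336 bp, whereas long noncoding and unannotated loci have medians of 190 and 188 bp.

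Genes named repeatedly. Gm14005, named by 24 loci, lies antisense and downstream of Bcl2l11, which encodes the proapoptotic BH3 protein BIM. RefSeq calls this gene Morrbid, known in mouse myeloid cells. With Gm14009 there were 26 loci, all on the minus strand, in 4 clusters over 238 kb, and all had Bcl2l11 as linked gene at 29.2 to 136 kb. None was marked bidirectional. The span lies over Gm14005 and Gm14009, and a locus on either strand of a gene was given its name. The absence of unannotated loci from that span was therefore set by the rule. The 26 loci had lengths from 82 to 130851 bp with a median of 224 bp, and their median score was 0.0457. These 26 loci are neighbouring pieces of a single region and not independent observations. Fewer loci named the other repeated genes. 6030443J06Rik and 2610203C20Rik were named by 4 loci each, Gm14009 by 6, and 2310014F06Rik, Gm12811, Gm28039 and Gm7823 by 3 each. All 3 Gm28039 loci had Zfp644 as linked gene, at 19.9 to 27.6 kb. RefSeq calls 2610203C20Rik Mir100hg, and 1 of its 4 loci was the Mir125b-1 host.

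Known long noncoding genes and cardiac genes. Of 69 named long noncoding genes that were looked up by deposited or GENCODE M21 name, 9 names were found at 30 of the loci. These were Gm14005 (24 of the loci), Carmn and its other name Mir143hg, Bvht, Mir17hg, Mir99ahg, Mirg, Pvt1 and 5033428I22Rik. Mir100hg was also looked up, but its 4 loci carry the name 2610203C20Rik and are not among the 30. A gene of 6 cardiac lists (91 genes) was the neighbour or linked gene of 7 of the 202 loci (3.47%, 1.69 to 6.98) and of 139 unannotated loci (10.8%, 9.22 to 12.6). Counted by clusters, these were 6 of 162 clusters and 47 of 836 clusters, and the shares were not tested. The lists were chosen with earlier results of these data known, so the contrast between the shares is no independent result. The 17 calcium handling genes were neighbours or linked genes of 6 unannotated loci (0.466%). The 8 natriuretic and growth genes were those of 68 unannotated loci (5.28%), in 9 clusters. None of the genes of these lists was a neighbour or linked gene of a member (0%, upper limit 1.87% for each list). From 23 cardiac transcription factor genes there were Hand2, a regulator of heart morphogenesis 7032 bp from XLOC_053305 over 5033428I22Rik, and Tead1, a Hippo pathway factor 2005 bp from XLOC_052259. From 18 ion channel and conduction genes there was Kcnj2, from 14 sarcomere genes Mylk4, a kinase of the myosin light chain kinase family 154 kb from Gm11382, and from 11 energy metabolism genes Ppara.

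Linked genes. A linked gene was given for 77 of the 202 loci (38.1%, 31.7 to 45.0) and for 23.9% (21.6 to 26.3) of unannotated loci, a difference of 14.3 points (Fisher's exact test, adjusted exact p = 7.10e-05). That call rested on Bcl2l11. Without the 26 loci over Gm14005 and Gm14009 it was 29.0% against 23.9% (adjusted exact p = 0.374), and with the longest locus of each cluster 30.2% against 28.6% (adjusted exact p = 0.705). Pseudogene loci had a linked gene in 23.9% (15.3 to 35.3).

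The 77 loci formed 91 pairs with 59 linked genes. Outside the Bcl2l11 region the median distance was 80.6 kb (53.6 to 123), and 59 of 65 pairs lay within 195 kb while the other 6 lay at 607 to 723 kb. Among the 12 nearest were Psd3 (0 kb, the locus lying inside the gene), Adam21 (2.38 kb), 9830147E19Rik (4.36 kb), Brwd1 (5.25 kb), the membrane skeleton gene Epb4.1 (5.36 kb) and Brcc3 (6.77 kb). Further genes among them were the matrix glycoprotein gene Emilin2 (7.12 kb), the splicing kinase gene Srpk2 (7.64 kb), Mreg (13.8 kb), Lrrc38, a potassium channel subunit gene (18.6 kb), and Zfp644 (19.9 kb).

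Other linked genes lay farther away. Myom3, a protein of the sarcomeric M band, was linked to both Gm12989 loci, at 43.0 kb and 43.5 kb. Bmf, a BH3 protein like the product of Bcl2l11, lay 44.6 kb from Gm14016. Trpc1, a cation channel gene, lay 80.1 kb from Gm16126, and Unc45b, a myosin chaperone gene, 84.7 kb from Slfn10-ps. Opa1, a mitochondrial fusion gene, lay 157 kb from Gm26834, and Sgcd, which encodes delta-sarcoglycan, 607 kb from Gm12181. The farthest pair was Gm11674 and Kcnj2 at 723 kb. The linked gene is a column of the authors that rests on changes in coding genes, and the direction of those changes is not used here.

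The remaining linked genes were spread over the genome with 1 or 2 loci each. Long noncoding members were linked to Chn1 (Chrna1os), Smchd1 (Gm26561), Sestd1, Zfp385b and Ccdc141 (Gm13943), Icam4 (1700084C06Rik), Pnmal2 (9330104G04Rik), Ptpru (Gm12992), Hfe2 and Hist2h2be (Gm26654), Mettl7a3 (5330439K02Rik), Adam4 and Gm4787 (6530401F13Rik), Mks1 (Gm11508), Clec9a (2310001H17Rik), 4933402D24Rik (Gm13749), Tet2 (Gm26691) and Mpdz (Gm11264). Pseudogene members were linked to Ubn2 and Clec2l (Gm15697), Mtcp1 and F8 (Gm15385), Plb1 (Gm5864), Gm5595 (Gm20434), Dnajc28 and Son (Gm7856), Lgr6 (Gm4204), Ret (Gm4875) and Gm14378 (Gm16589). Small RNA members were linked to Xrcc5 (Gm25360), Dst (Mir5103) and Retn (Rprl3), and clone-named members to Clasp1 and Plscr5.

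Position and bidirectional transcription. A coding start site lay within 50 kb of 114 of the 202 loci (56.4%, 49.5 to 63.1) and of 53.8% of unannotated loci (difference 2.67 points, adjusted exact p = 0.620). Without the Gm14005 and Gm14009 loci the share was 64.8% (57.5 to 71.4) and the difference of 11.0 points passed the test (adjusted exact p = 0.0105). That choice removed a region from the annotated side only. With 1 locus per cluster on both sides it was 63.6% against 61.6% (difference 1.98 points, adjusted exact p = 0.659). Within 10 kb of a coding gene, 21 loci lay upstream on the opposite strand and 8 upstream on the same strand. Downstream there were 19 on the same strand and 13 on the opposite strand. Inside a coding gene lay 4 on the same strand and 3 on the opposite strand, and 3 overlapped one on the same strand. The unannotated loci were not counted in this way, so these counts show no trait of the annotated loci. XLOC_050733 over 9330104G04Rik, 1022 bp from Dact3, a Wnt pathway antagonist, and XLOC_014215 over Gm4117, 910 bp from the end of the DNA repair gene Xrcc4, were among the closest. The bidirectional mark was given to 51 of the 202 loci (25.2%, 19.8 to 31.7) and to 23.1% of unannotated loci (difference 2.17 points, adjusted exact p = 0.620). By class it was 26.2% for long noncoding, 25.4% for pseudogene and 22.2% for small RNA loci.

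**Figure D5:**
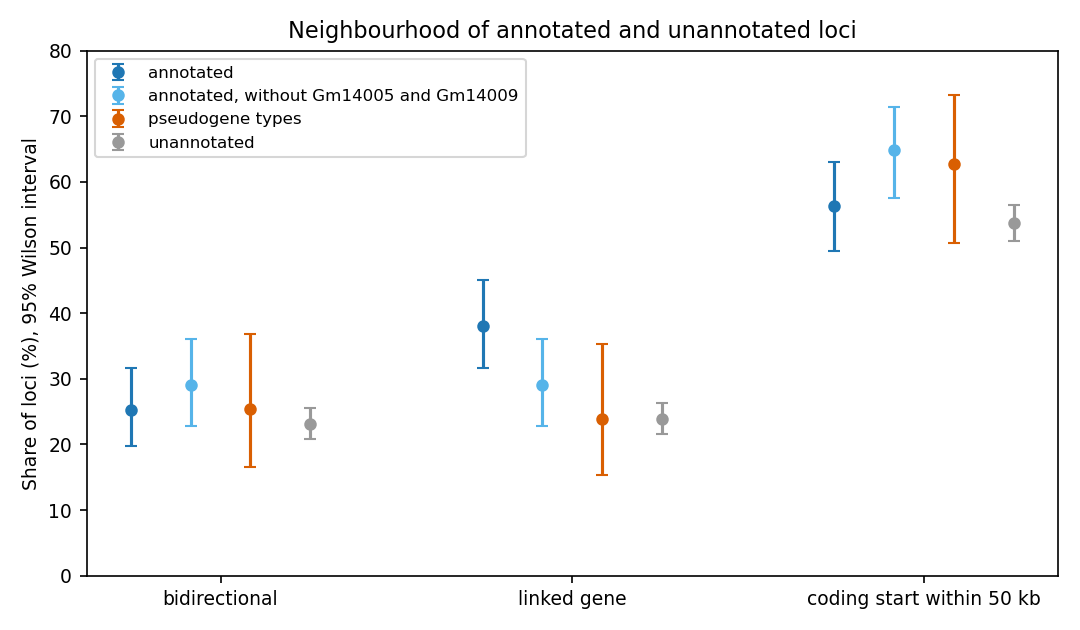
Share of loci (percent, with 95% Wilson intervals) that were marked bidirectional, had a linked gene or had a coding start site within 50 kb, for annotated loci, annotated loci without Gm14005 and Gm14009, pseudogene loci and unannotated loci. The linked gene share of annotated loci falls from 38.1% to 29.0% without the Gm14005 and Gm14009 loci, near the 23.9% of unannotated loci.

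Promoters. RefSeq promoters, 250 bases before to 50 bases after a start, were matched for 45 of the named genes (53 promoters, 77 loci). The T-box letters AGGTGTGA were found on either strand in 1 of the 53 (1.89%, 0.334 to 9.94), that of Gm15614, and in 1.28% of all 32851 promoters of the table. The shorter form GGTGTGA, which the longer contains, was found in 4 (7.55%, 2.97 to 17.9) and in 3.98% of all promoters. Of the 53 promoters, 16 overlapped a locus on its strand by 1 base or more, 4 of them along their whole length, and 0 of the 16 held either form (upper limit 19.4%). These counts describe letters in a window and were not tested.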

How the data were processed

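Left atrial RNA of 3 control and 4 Tbx5 knockout libraries was measured. Per the labels and methods, the authors trimmed 3 bases from 50-base reads, aligned them to mm10 with TopHat2 (versions 2.0.10 and 2.0.13 are both named), assembled transcripts with Cufflinks (with correction for reads of several places), counted with featureCounts and tested with DESeq. FastQC and Picard are also named. The deposited phastCons value is a fraction from 0 to 1 that the authors averaged over each locus in mm9, leaving out bases without a score. Positions, strand, annotation, bidirectional mark and linked genes were used as deposited, from 1 of 2 identical copies of the table. The methods give a range of reads per library, but the reads behind each locus are unknown.

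Members and lists were chosen with earlier results of these data known. Members took a class from their deposited types: any pseudogene type first, then small RNA, then long noncoding. Positions were compared with GENCODE M21 on GRCm38. Clusters joined loci with gaps of no more than 10 kb. Exon sequence was compared with messages of other genes by exact 47-base windows and by BLAST+ 2.17.0+ (e-value limit 1e-10). From BLAST+ only the highest-scoring aligned stretch of each locus was kept. Intervals are 95% Wilson intervals for shares and order-statistic intervals for medians, and cover counting error only. Shares were compared by two-sided Fisher's exact tests in SciPy 1.17.1, with Benjamini-Hochberg adjustment over 7 tests, the window comparison added later among them. These treat loci as independent, which neighbouring loci are not, so each was repeated with 1 locus per cluster. The tests were run on simulated data first. Named loci were those with a linked gene, the 10 longest, the 10 highest scores among pseudogene and among other loci, genes named by 3 or more loci, small RNA loci, and loci at listed long noncoding or cardiac genes. Other named loci were chosen after their values were seen. Some of the linked and matched genes are not reported here.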

Additional observations from a re-analysis of the deposited data

How the results depend on the processing

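Of 41 alternatives over 8 results, 31 kept direction and side of the threshold. Differences below are in percentage points, annotated minus unannotated. With 1 locus per cluster the linked gene difference fell to 1.66 and without the Gm14005 and Gm14009 loci to 5.12, neither past the threshold. The length difference passed it with 1 locus per cluster (18.2, the locus kept being chosen by length), at 100 bp (7.81), at 500 bp (12) and at 1000 bp (9.68). The start site difference passed it without the Gm14005 and Gm14009 loci (11.0), but not with 1 locus per cluster (1.98). The sign turned, with no call on either side, for conservation without pseudogenes at 1 locus per cluster (-0.511) and above 0.7 (-0.865), and for start sites without pseudogene types (-0.435). The cause was not tested. Leaving out repeated intervals, an alternative chosen after seeing the data, changed no call. The planned searches of the genome for shared reads and for a T-box motif at locus starts were not run, because no genome sequence was used here. No paired analysis was possible because the list holds no value per library.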

Other observations

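The exons of 65 pseudogene and clone-named loci matched the messages of 56 coding genes. Of these, 7 genes matched by 9 loci were picked out as cell division genes after the matches were seen, with no test. Their share among all coding genes was not computed. Gm6091 matched the thymidine kinase gene Tk1 at 99.4% identity, with 60.5% of 47-base windows unchanged. XLOC_039831 at Gm12387 matched the mitotic kinase gene Pbk at 99.3%, with 80.2% unchanged. Gm8669 matched Cenpe, a centromere kinesin, at 97.8%, and Gm13176 matched Prc1, a protein of the central spindle, at 93.4%.

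Also chosen after the values were seen, with no test, were loci at members of interferon-induced or inflammasome families: Mx2, Gm12250 of the immunity-related GTPases, Slfn10-ps, Gm11427, Nlrp1c-ps and Gm4759, which lay 206223 bp from Gvin1. In that order their scores were 0.104, 0.0902, 0.103, 0.00298, 0.0562 and 0.193.

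The division into annotated and unannotated loci depended on the annotation release. In GENCODE M21, 22 of the 202 loci overlapped no gene they named, and 17 of these lay over another noncoding gene on their strand. Of the 1287 unannotated loci, 142 lay over a noncoding gene of that release on their strand.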
